A study of Mus musculus with 19 samples.

Results

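The genes described here are 9 genes of epidermal adhesion: the integrin subunits Itga3, Itga5, Itga6, Itgb1, Itgb4 and Itgb6, the laminin-332 chains Lama3 and Lamb3, and the plakin Dst. They were chosen by symbol, each matched to 1 Ensembl identifier, and are 9 of the 34807 genes in the count table. All 9 passed the filter on low counts. RNA was sequenced from 15 tumours and 4 samples of wild-type (WT) normal skin, 1 library each, from female mice on a C57BL/6J background. The labels give an age of 7 to 20 weeks for tumour and skin samples alike, but not the age of each sample at collection. In 6 Ivl, 5 K5 and 4 K14 tumours, labelled as squamous cell carcinoma, tamoxifen-inducible Cre had switched on BRAFV600E. Expression of Cre came from the promoter of Ivl (involucrin), a gene of epidermal cells committed to differentiation, or of Krt5 or Krt14, keratin genes of the basal layer. The 5 K5 and 4 K14 tumours form 1 group of 9 (K5/K14). The study describes that tumours of K5 and K14 mice grew on the back and those of Ivl mice also at other sites. The skin came from control littermates. The labels do not give the site of each tumour, so promoter and body site cannot be told apart. The study also describes a later tumour onset in Ivl mice, after induction within the same range of ages. Ivl tumours may thus come from older mice, which the range in the labels does not show. The study induced Ivl mice with tamoxifen, and K5 and K14 mice with 4-hydroxytamoxifen. Promoter cannot be told apart from time to onset, age or inducing drug either.

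Integrins are receptors made of 1 alpha and 1 beta chain. In the epidermis α6β4, encoded by Itga6 and Itgb4, sits in hemidesmosomes, where it grips laminin-332 in the basement membrane and, through dystonin (Dst, the gene of BPAG1e) and plectin (Plec), the keratin filaments inside the cell. α3β1 also binds laminin-332, but connects to actin at focal adhesions. α5β1 is the main fibronectin receptor, and αvβ6, whose β chain is Itgb6, binds fibronectin and activates latent TGF-β. Lama3 and Lamb3 encode chains of laminin-332, whose anchoring to the dermis runs through type VII collagen (Col7a1). Loss of laminin-332 or of α6β4 causes blistering of the skin.

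By GENCODE M21 on GRCm38, Itga3 is on chromosome 11 (95044474 to 95076801, minus strand), Itgb4 on chromosome 11 (115974709 to 116008412, plus), Itga6 on chromosome 2 (71745616 to 71858416, plus) and Itgb6 on chromosome 2 (60598292 to 60722643, minus). Itgb1 lies on chromosome 8 (128685654 to 128733200, plus), Itga5 on chromosome 15 (103344286 to 103366763, minus), and Lamb3 on chromosome 1 (193207699 to 193343878, plus), with Dst on chromosome 1 (33908225 to 34308661, plus). Counts were summed over exons of each gene, so isoforms of Itga6 and Dst cannot be separated, and Dst also has isoforms of muscle and nerve. Exons of Itgb4, Lama3 and Dst overlap genes on the opposite strand (B230344G16Rik, Gm29200, and Gm26788 and A930005N03Rik, respectively). The kit kept strand, but whether counting used it is not stated in the sources used here, so reads from these overlaps may be included.

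Windows before RefSeq starts on GRCm38.p6 are described for 6 of the 9 genes (Dst, Itga3, Itga5, Itgb1, Itgb6 and Lamb3). Those of the other 3 (Itga6, Itgb4 and Lama3) are not described here. The 250 bases before a start are shown for Itga3 (1 of its 2 starts, that with more GC boxes, while the other holds 1) and Itga5, the integrin alpha chains with the largest differences between K5/K14 tumours and skin, and for both starts of Dst, the gene that was lower there. Capitals mark exact matches to the GC box, GGGCGG, on either strand, which 32.7% of the 32851 RefSeq windows of this length held. The AP-1 motif TGANTCA, also searched on both strands and held by 6.75% of windows, was in none of the 10 windows of these 6 genes. A match is a description of the letters, not a bound site.
Itga3, chr11:95076715-95076964, minus strand, 3 GC boxes: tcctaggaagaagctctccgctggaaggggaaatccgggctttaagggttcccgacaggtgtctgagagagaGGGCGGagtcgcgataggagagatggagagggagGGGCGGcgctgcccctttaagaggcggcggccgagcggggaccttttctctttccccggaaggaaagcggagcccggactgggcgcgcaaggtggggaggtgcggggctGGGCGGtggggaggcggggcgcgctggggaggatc
Itga5, chr15:103366792-103367041, minus strand, 2 GC boxes: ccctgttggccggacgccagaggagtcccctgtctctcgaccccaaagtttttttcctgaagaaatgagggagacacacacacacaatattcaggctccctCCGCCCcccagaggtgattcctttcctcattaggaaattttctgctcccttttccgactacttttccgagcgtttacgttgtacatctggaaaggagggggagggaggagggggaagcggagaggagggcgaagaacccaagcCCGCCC
Dst, chr1:34011345-34011594, plus strand, 4 GC boxes: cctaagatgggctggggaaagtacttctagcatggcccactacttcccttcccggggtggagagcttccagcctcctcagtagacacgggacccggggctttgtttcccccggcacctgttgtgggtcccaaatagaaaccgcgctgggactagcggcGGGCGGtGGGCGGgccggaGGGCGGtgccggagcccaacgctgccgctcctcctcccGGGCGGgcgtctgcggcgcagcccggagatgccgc
Dst, chr1:34160010-34160259, plus strand, 0 GC boxes: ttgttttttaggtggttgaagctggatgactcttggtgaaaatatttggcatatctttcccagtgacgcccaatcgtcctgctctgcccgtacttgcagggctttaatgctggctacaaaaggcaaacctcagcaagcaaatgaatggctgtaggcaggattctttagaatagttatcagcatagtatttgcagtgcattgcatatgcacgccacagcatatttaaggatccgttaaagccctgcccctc
The pair of Dst windows shows how unlike the starts of 1 gene can be, 68.8% against 45.2% G and C bases, while the count table gives a single value for both.

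Total counts ran from 45715309 to 72609771 per library. A set of 4 libraries, Ivl tumours 1, 2 and 3 and K5 tumour 1, bore the trace of the batch adjustment that the authors applied: 96.6% of 13954 genes had means in the set and outside it that differed by no more than 0.1 on the log2 scale, against 64.1% for the next of 3876 sets. Tests were run over all 19 libraries and again over those outside this set, called the 15 libraries (3 Ivl, 8 K5/K14 and 4 normal skin). The set holds no skin, while the libraries outside it include all 4 skin samples, so the matched means are of unlike mixes. Lama3 averaged 385 CPM in the set, 407 in the other 15 and 518 in the other 11 tumours, and Dst 496, 458 and 391. How far this moved Ivl tumours 1, 2 and 3 toward skin was not tested. Cell type markers differed between groups as well. The summed level of 4 basal keratinocyte markers (Krt5, Krt14, Krt15 and Trp63) was 3540 to 7520 in normal skin in CPM (the counts-per-million scale), 9040 to 56600 in Ivl and 40500 to 62900 in K5/K14 tumours, and that of 5 skeletal muscle markers was 2070 to 6030 in skin, 4.09 to 3620 in Ivl and 4.95 to 325 in K5/K14 tumours. Medians of the basal sum were 5520 CPM in skin, 42000 in Ivl and 44400 in K5/K14 tumours, and the lowest Ivl value was that of Ivl tumour 1. None of these keratinocyte markers was at 0 in any library. In bulk tissue, a smaller share of cells of a type and less RNA per cell cannot be told apart.

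The α6β4 and α3β1 transcripts were higher in tumours than in skin, and more so in K5/K14 than in Ivl tumours by point estimate. Itga6, the α chain of the hemidesmosome receptor, stood at 162, 306, 197 and 173 CPM in the 4 skin samples. It stood at 738, 693, 772, 912 and 860 CPM in the K5 tumours and at 502, 502, 1034 and 898 in the K14 tumours, and in Ivl tumours the lowest, median and highest values were 307, 585 and 782 CPM. All 15 tumours were above all 4 skin samples, although Ivl tumour 1 (307) exceeded the highest skin sample (306) only just. Its β partner Itgb4 gave 117, 225, 139 and 147 CPM in skin, 497, 381, 483, 610 and 488 in K5, 347, 303, 580 and 496 in K14, and 207, 334 and 408 (lowest, median, highest) in Ivl tumours. Here the K5/K14 tumours did not overlap skin and the Ivl tumours did, through Ivl tumour 3. The log2 fold change over skin was 1.87 ± 0.26 (SE) for Itga6 and 1.57 ± 0.23 for Itgb4 in K5/K14 tumours (edgeR quasi-likelihood test, adjusted p = 9.2e-06 and 1.9e-05), and 1.46 ± 0.26 and 1.01 ± 0.24 in Ivl tumours (adjusted p = 2.3e-04 and 0.0023).

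Itga3 had the largest log2 difference from skin among the integrin members in both tumour groups. It stood at 65.1, 64.6, 52.2 and 32.5 CPM in skin, against 469.5, 363, 388, 533.5 and 409.8 in K5 and 168, 174, 334 and 323 in K14 tumours, and 91.9, 165 and 271 in Ivl tumours. No tumour overlapped skin, and all 5 K5 tumours lay above all 4 K14 tumours. The log2 fold change was 2.71 ± 0.37 in K5/K14 (adjusted p = 9.7e-06) and 1.69 ± 0.36 in Ivl tumours (adjusted p = 0.0013, edgeR). Itgb1, the β chain shared by α3, α5 and α6, gave 178.5, 196, 268 and 324 CPM in skin, 1018, 673, 821, 941 and 1091 in K5, 526, 480.0, 1054 and 886 in K14, and 371, 477 and 623 in Ivl tumours. Again no tumour overlapped skin, and the log2 fold changes were 1.79 ± 0.25 (adjusted p = 9.3e-06) in K5/K14 and 1.04 ± 0.25 (adjusted p = 0.0028) in Ivl tumours. Within the 15 libraries these 4 genes kept their calls in both comparisons, with log2 fold changes of 1.56 to 2.65 in K5/K14 and 1.13 to 1.93 in Ivl tumours.

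**Figure D1:**
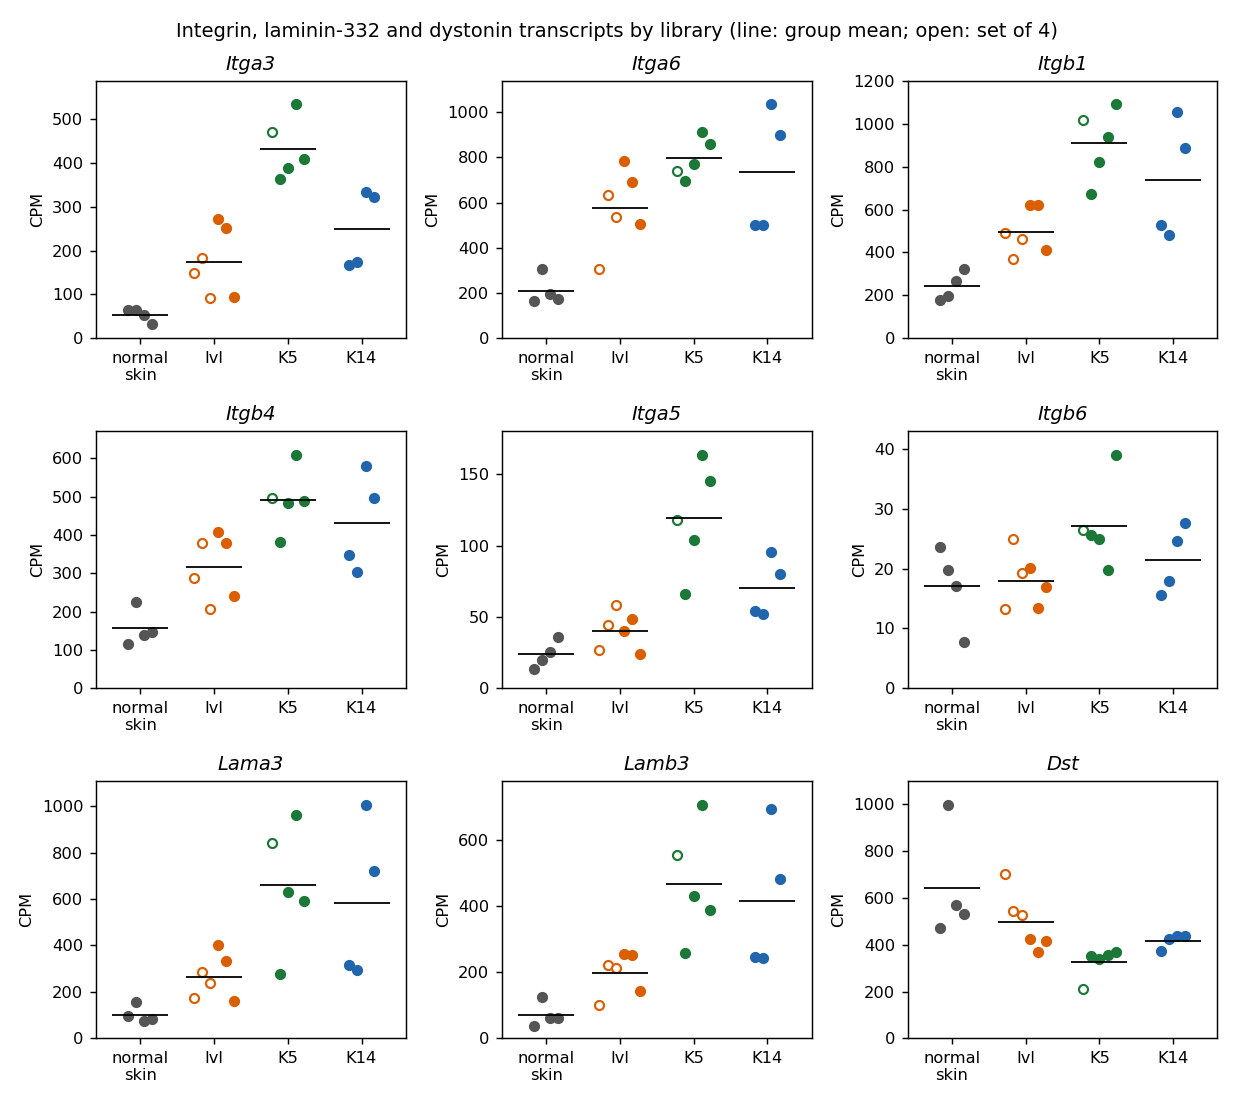
CPM (linear axis from 0) of the 9 genes in each library, by group. Each point is 1 library, the line is the group mean, and open points are the set of 4 libraries. Every K5/K14 point of Itga3, Itga5, Itga6, Itgb1, Itgb4, Lama3 and Lamb3 lies above the skin samples, the Dst points of K5 and K14 tumours lie below them, and Itgb6 overlaps throughout.

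The fibronectin receptor chain Itga5 rose in K5/K14 tumours. Its values were 13.8, 19.7, 25.5 and 35.75 CPM in skin, 118, 65.85, 104, 164 and 145 in K5, 54.1, 51.9, 95.6 and 79.9 in K14, and 23.8, 42.45 and 58.4 in Ivl tumours. The K5/K14 tumours lay above all skin samples and the Ivl tumours among and above them. The log2 fold change was 2.04 ± 0.35 in K5/K14 tumours (adjusted p = 9.1e-05, edgeR), and in Ivl tumours 0.77 ± 0.34 (adjusted p = 0.081), which did not pass. Without normal skin sample 4, the highest of its group, the Ivl difference was 1.02 and passed (adjusted p = 0.041). Itgb6, the TGF-β activating chain, gave 23.7, 19.8, 17.0 and 7.745 CPM in skin, 26.5, 25.5, 24.9, 19.8 and 39.0 in K5, 15.6, 17.9, 24.65 and 27.5 in K14, and 13.25, 18.1 and 25.0 in Ivl tumours. The groups overlapped, and neither the K5/K14 difference (0.53 ± 0.26, adjusted p = 0.080) nor the Ivl difference (0.08 ± 0.27, adjusted p = 0.82) passed. Without normal skin sample 1 the K5/K14 difference passed (0.72, adjusted p = 0.037). The 15 libraries gave the same calls, with 2.00 ± 0.37 for Itga5 in K5/K14 tumours (adjusted p = 3.1e-04) and 0.66 ± 0.41 in Ivl tumours (adjusted p = 0.18), and for Itgb6 0.51 ± 0.27 and -0.02 ± 0.33 (adjusted p = 0.10 and 0.96).

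The laminin-332 chains rose in both tumour groups and varied widely between tumours. Lama3 stood at 94.9, 156, 76.4 and 82.5 CPM in skin, at 841, 275, 631, 963 and 592 in K5, at 315, 293, 1006 and 719 in K14, and at 162, 262 and 402 in Ivl tumours. Lamb3 stood at 36.5, 126, 60.8 and 62.95 CPM in skin, at 553, 258, 429, 705 and 387 in K5, at 246, 241, 693 and 481 in K14, and at 101, 217.5 and 254 in Ivl tumours. For both chains K5 tumour 4 and K14 tumour 3 were the highest libraries, while K5 tumour 2 and K14 tumours 1 and 2 were the lowest of the K5/K14 group and inside the Ivl range or next to it. The log2 fold changes over skin in K5/K14 tumours were 2.61 ± 0.40 for Lama3 and 2.63 ± 0.39 for Lamb3 (adjusted p = 2.9e-05 and 2.3e-05), or 6.11-fold and 6.19-fold. In Ivl tumours they were 1.38 ± 0.39 and 1.46 ± 0.38 (adjusted p = 0.0098 and 0.0059), or 2.6-fold and 2.75-fold. Over the 15 libraries both chains kept these calls, at 2.55 ± 0.43 and 2.59 ± 0.41 in K5/K14 and 1.55 ± 0.47 and 1.59 ± 0.45 in Ivl tumours (adjusted p from 8.4e-05 to 0.013). Col7a1, the anchoring fibril collagen, rose in both groups, by a log2 fold change of 4.39 ± 0.42 in K5/K14 and 2.83 ± 0.39 in Ivl tumours (adjusted p = 9.7e-07 and 2.5e-05), and over the 15 libraries of 4.34 ± 0.32 and 2.94 ± 0.33 (adjusted p = 3.6e-08 and 2.9e-06).

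Dst was the only member with lower values. It stood at 471.5, 999, 571 and 529.8 CPM in skin, at 212, 351, 339, 357 and 371 in K5, at 375, 423, 436 and 439 in K14, and at 370.5, 477 and 701 in Ivl tumours. All K5/K14 tumours lay below all skin samples, normal skin sample 2 stood well above the other 3, and the Ivl tumours overlapped skin. The log2 fold change in K5/K14 tumours was -0.81 ± 0.20 (adjusted p = 0.0023). In Ivl tumours it was -0.37 ± 0.22 (adjusted p = 0.18), which did not pass over 19 libraries, and -0.67 ± 0.21 (adjusted p = 0.013), which passed within the 15. The median over all genes tested was -0.603 in K5/K14 and -0.46 in Ivl tumours, so the Dst values lie near the middle of all genes on this scale. Plec, the other plakin of the hemidesmosome, fell in both groups (-0.66 ± 0.24, adjusted p = 0.021, and -0.97 ± 0.26, adjusted p = 0.0065), and its K5/K14 call was lost without normal skin sample 2 (-0.56, adjusted p = 0.080) and with K5 tumours alone (-0.475 ± 0.255, adjusted p = 0.12). K5 tumour 1, at 941 CPM of Plec, stood above every skin sample (654 to 889.8). In the 15 libraries, which leave it out, Plec fell by 0.855 ± 0.124 in K5/K14 and 1.06 ± 0.16 in Ivl tumours (adjusted p = 2.55e-05 and 6.9e-05), with no overlap. Skeletal muscle markers were lower in all 9 K5/K14 tumours than in any skin sample, as given above, and the summed level of 5 Schwann cell and nerve markers was 96.8 to 168 CPM in skin and 42.9 to 67.2 in K5/K14 tumours. Their part in the Dst and Plec values was not tested. Col17a1, the transmembrane collagen of the hemidesmosome, rose in K5/K14 tumours (1.45 ± 0.29, adjusted p = 3.6e-04) and stood at 0.70 ± 0.29 in Ivl tumours (adjusted p = 0.068). The tetraspanin Cd151, a partner of laminin-binding integrins, rose in K5/K14 tumours by 0.52 ± 0.16 on the log2 scale (adjusted p = 0.0076), a direction that turned to -0.28 (adjusted p = 0.11) when libraries were scaled by their totals only. Both kept their calls over the 15 libraries.

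In K5/K14 tumours against skin, 7 of the 9 genes were higher, where 23.2% of the 32031 genes tested were, and 1 was lower, where 38.9% were. In Ivl tumours against skin, 6 were higher (20.4% of all genes) and 0 lower (15.5% of all genes). Within the 15 libraries the counts were 7 higher and 1 lower for K5/K14 (23.9% and 42.3% of all genes) and 6 higher and 1 lower for Ivl tumours (22.2% and 32.7% of all genes). Both comparisons share the 4 skin samples. The median log2 difference of the 9 genes was 1.87 in K5/K14 and 1.04 in Ivl tumours. The levels rest on the scaling: TMM factors were 1.427 to 1.659 in skin and 0.8063 to 1.149 in tumours, and scaling by totals only moved the median of all genes from -0.603 to -1.399 (K5/K14) and from -0.46 to -1.13 (Ivl). With totals only, the K5/K14 counts stayed at 7 higher and 1 lower. For Ivl tumours 2 genes were higher, Itga3 (0.94, adjusted p = 0.025) and Itga6 (0.75, adjusted p = 0.014), and 1 was lower, Dst (-1.04, adjusted p = 0.0031), and the Itgb6 estimates of both comparisons turned negative without passing.

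**Figure D2:**
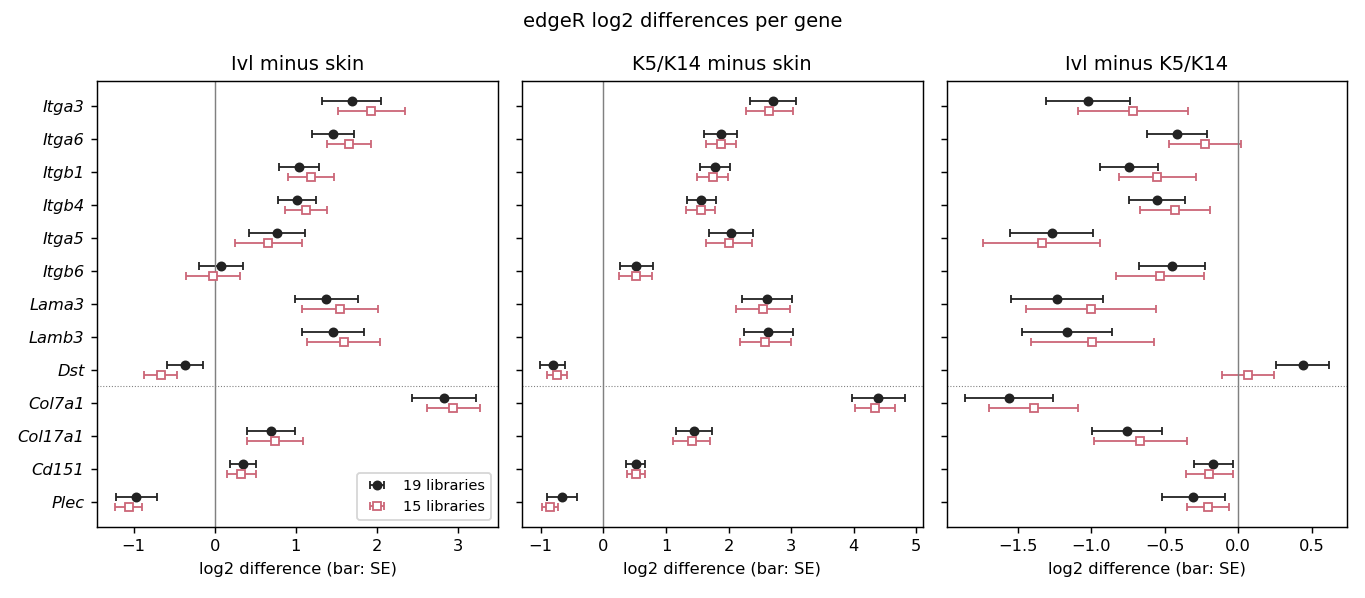
Log2 differences (x axis) between groups for the 9 genes (above the dotted line) and 4 partners, from edgeR, with bars of 1 SE. Filled points use all 19 libraries and open squares the 15 outside the set of 4. In K5/K14 minus skin, 7 members lie between 1.57 and 2.71 and Dst at -0.81. In Ivl minus K5/K14, all members but Dst lie below 0.

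Ivl tumours were next compared with K5/K14 tumours, which asks whether Ivl tumours carried less of these transcripts. The groups differ in promoter and also in time to onset and inducing drug, so cell of origin by itself was not tested. Of the 9 genes, 8 had negative estimates and 3 passed: Itga5 (-1.27 ± 0.28, adjusted p = 0.031), Lama3 (-1.24 ± 0.31, adjusted p = 0.045) and Lamb3 (-1.17 ± 0.31, adjusted p = 0.0496). Over all genes, 0.593% were lower and 1.77% higher, and 0 of the members were higher. The values of the 3 genes overlapped between the groups. Itgb1 (-0.75 ± 0.20, adjusted p = 0.053) and Itga3 (-1.02 ± 0.29, adjusted p = 0.064) did not pass, and with DESeq2 both did (adjusted p = 0.00765 and 0.0135), which gave 5 lower genes. Col7a1 was lower too (-1.56 ± 0.30, adjusted p = 0.019), and every Ivl tumour lay below every K5/K14 tumour for Col7a1. In the 15 libraries Col7a1 did not pass (adjusted p = 0.0625). Within the 15 libraries 0 of the 9 passed with edgeR, where 0.197% of genes were lower and 0.213% higher. The estimates there were -1.34 ± 0.40 for Itga5, -1.001 ± 0.44 for Lama3 and -0.99 ± 0.42 for Lamb3 (adjusted p = 0.18, 0.41 and 0.38), and for Itga5 the 3 Ivl tumours left lay below all 8 K5/K14 tumours.

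The 3 calls did not hold in every fit that left out 1 library. When each of the 19 libraries was left out in turn, Itga5 lost its call in 6 fits (without K5 tumours 1, 3, 4 and 5 or K14 tumours 3 and 4) and Lama3 and Lamb3 in 13 each, with estimates of -1.41 to -1.14, -1.39 to -1.12 and -1.25 to -1.04 and adjusted p of 0.021 to 0.059, 0.027 to 0.085 and 0.03 to 0.092. Both laminin chains lost the call without Ivl tumours 1, 2, 3 and 6, K5 tumours 1, 3, 4 and 5, K14 tumours 3 and 4 and normal skin samples 3 and 4. Lama3 lost it also without normal skin sample 1, and Lamb3 without K5 tumour 2. Itga3 gained a call in 4 fits (without K14 tumours 1 and 2 or Ivl tumours 4 and 5) and Itgb1 in 7 (without the same 4 or normal skin samples 1, 2 and 4).

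Both basal promoters gave tumours, so K5 was set against K14. With edgeR 0 of the 9 genes passed in either direction, as did 0.0% of all genes, while 2 members had an unadjusted p under 0.05 with edgeR and 2 with DESeq2, which also called 0. Itga3 was 1.73-fold higher in K5 tumours with no overlap (0.79 ± 0.32, unadjusted p = 0.023, adjusted p = 0.76) and Itga5 stood at 0.76 ± 0.31 (adjusted p = 0.77). Dst was lower in all 5 K5 than in all 4 K14 tumours (-0.36 ± 0.22, adjusted p = 0.88). The 15 libraries also gave 0 of 9 (0.0219% of genes higher and 0.0313% lower). Among the K14 tumours, numbers 1 and 2 lay below numbers 3 and 4 for all 9 members.

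Ratios between partner transcripts within a library hardly depend on how libraries are scaled. Ratios were compared in 3 comparisons by two-sided exact permutation tests, adjusted over 24 tests of 8 ratios, of which 7 are described. The log2 ratio Lama3/Lamb3 stood at 0.60 ± 0.52 (SD, n = 4) in skin, 0.43 ± 0.25 in Ivl and 0.45 ± 0.18 in K5/K14 tumours, and the exact permutation tests gave adjusted p of 0.61 to 0.85 (0.56 to 0.90 over the 15 libraries). The highest value of that ratio was normal skin sample 1 at 1.38, with the other 3 skin samples at 0.30 to 0.39.

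Itga6/Itgb4 was 0.415 ± 0.118 in skin and 0.718 ± 0.132 in K5/K14 tumours, 1.23-fold higher with no overlap (exact permutation p = 0.0028, adjusted p = 0.031). The call was lost without K5 tumour 5, K14 tumour 4 or normal skin sample 4 (adjusted p over all leave-outs 0.018 to 0.082) and held over the 15 libraries (0.32, exact permutation adjusted p = 0.024). Itgb6/Itgav, the chains of αvβ6, was -2.64 ± 0.78 in skin, -2.38 ± 0.28 in Ivl and -1.86 ± 0.28 in K5/K14 tumours. It was higher in K5/K14 tumours than in skin (exact permutation adjusted p = 0.047) and lower in Ivl than in K5/K14 tumours (adjusted p = 0.031). Within the 15 libraries neither passed (exact permutation adjusted p = 0.068 and 0.13). The K5/K14 call against skin was lost in 11 of 19 leave-outs (K5 tumours 1, 2, 3 and 5, K14 tumours 2, 3 and 4, Ivl tumour 5 and normal skin samples 2, 3 and 4), and the estimate ran from 0.41 (without normal skin sample 4) to 1.02. Between the tumour groups, its call was lost without K5 tumours 3 or 5, K14 tumour 4 or Ivl tumour 5 (adjusted p up to 0.058). Within the 15, Itga5/Itgb1 was lower by 0.76 and Itga6/Itgb1 higher by 0.32 in Ivl tumours (exact permutation adjusted p = 0.036 for both), which did not pass over 19 libraries (adjusted p = 0.094 and 0.25). Itga3/Itgb1 and Dst/Plec passed in none of the 3 comparisons over 19 libraries, and in Ivl tumours against skin 0 of these 7 ratios passed by the exact permutation test, with 1, Dst/Plec, at an unadjusted p under 0.05. For Dst/Plec, K5 tumour 1 stood at -2.15 and Ivl tumour 1 at 1.44, with all other libraries between -0.47 and 0.55.

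**Figure D3:**
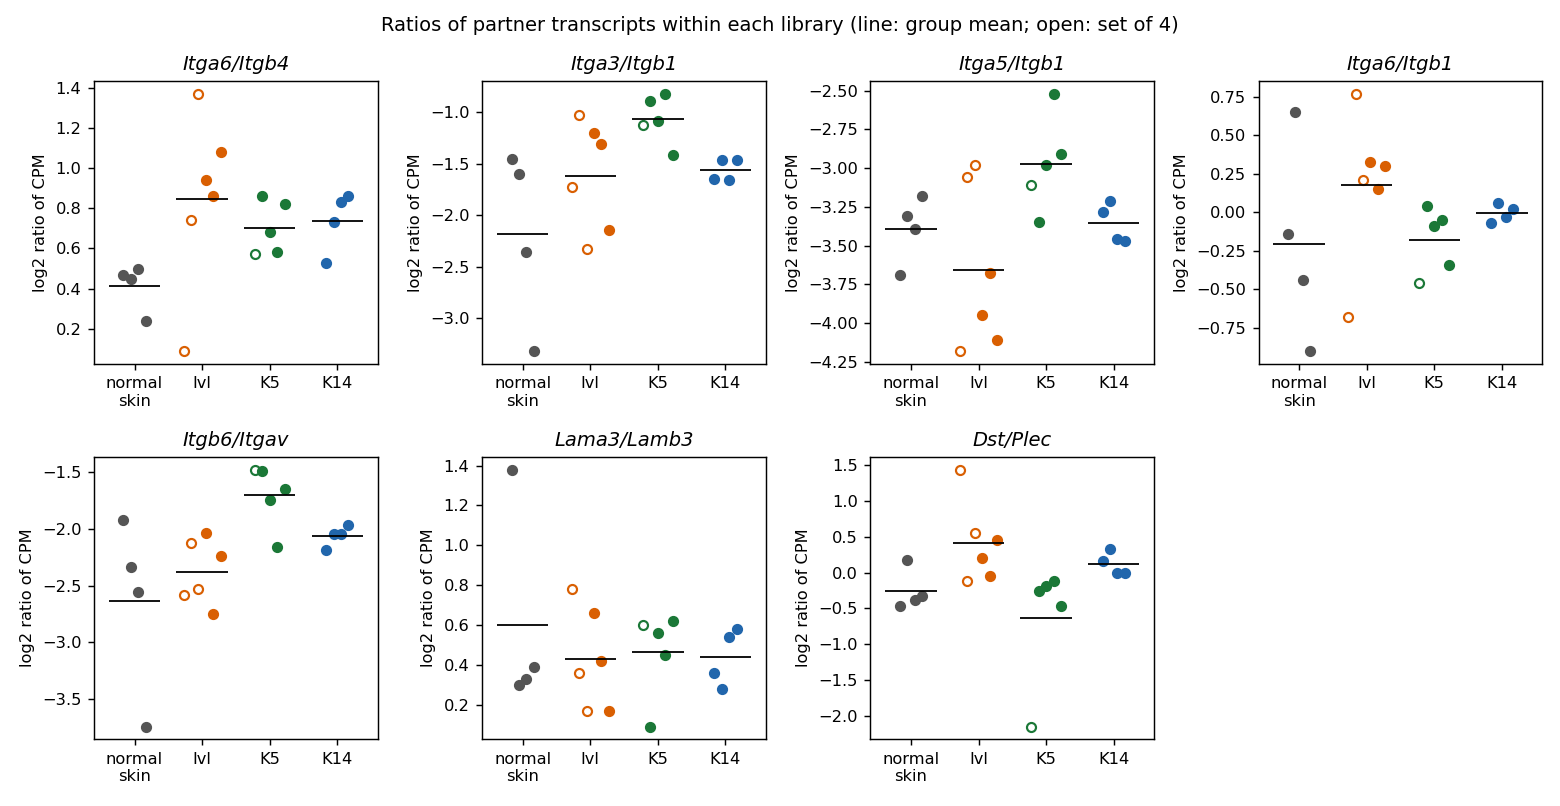
Log2 ratios of partner transcripts within each library (y axis), by group. Points are libraries, lines group means and open points the set of 4. Itga6/Itgb4 is higher in every K5/K14 tumour than in skin, Lama3/Lamb3 has its highest value in normal skin sample 1, and the Dst/Plec extremes are K5 tumour 1 and Ivl tumour 1.

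Per kilobase of annotated exon, levels can be compared between genes. In skin the order of mean CPM per kilobase was Itgb1 (59.2 ± 16.5, SD, n = 4), Itga6 (23.2 ± 7.32), Itgb4 (22.4 ± 6.70), Dst (15.6 ± 5.85), Lamb3 (10.8 ± 5.81), Lama3 (9.53 ± 3.403), Itga3 (9.39 ± 2.68), Itga5 (4.80 ± 1.90) and Itgb6 (2.40 ± 0.95). Neighbours from Itga6 to Itgb4, from Dst to Lamb3 and from Lamb3 to Itga3 lay within each other's SD. In K5/K14 tumours Itgb1 led again (203.9 ± 55.4, n = 9), followed by Itga6 (85.1 ± 20.15), Lamb3 (67.1 ± 27.4), Itgb4 (66.3 ± 14.6), Itga3 (61.6 ± 21.3) and Lama3 (58.3 ± 26.4), whose neighbours were within 1 SD, then Itga5 (19.8 ± 7.99), Dst (8.92 ± 1.685) and Itgb6 (3.46 ± 0.96). Exon length counts all isoforms, 41155 bases for Dst, which lowers its level per kilobase.

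The members were also set against basal keratinocyte transcripts of the same library, since the summed level of those transcripts moved with the groups. Relative to the mean log2 CPM of Krt5, Krt14, Krt15 and Trp63, the difference between K5/K14 tumours and skin was 1.71 for Itga3, 0.92 for Itga6, 0.81 for Itgb1, 0.62 for Itgb4, 1.06 for Itga5, 1.56 for Lama3, 1.70 for Lamb3, -0.37 for Itgb6 and -1.73 for Dst, as a description with no test. On this scale the groups did not overlap for Lamb3 and Dst and overlapped for the other 7 members. Col7a1 (3.62) did not overlap either. In Ivl tumours the same differences were 0.51 for Itga3, 0.34 for Itga6, -0.05 for Itgb1, -0.09 for Itgb4, -0.32 for Itga5, 0.25 for Lama3, 0.43 for Lamb3, -0.95 for Itgb6 and -1.44 for Dst, all overlapping skin. For Dst only Ivl tumour 1 (-0.559) lay among the skin samples (-0.982 to -0.315), and the next highest Ivl tumour stood at -2.07. Over the 15 libraries the Dst difference from skin was -1.80 in Ivl and -1.70 in K5/K14 tumours. The 4 markers did not move alike: Krt5 and Krt14 rose in K5/K14 tumours (2.33 ± 0.33 and 3.74 ± 0.43, edgeR adjusted p = 1.1e-05 and 2.1e-06), Trp63 rose by 0.51 ± 0.17 (adjusted p = 0.012) and Krt15, a marker of resting basal and follicle cells, fell by 2.725 ± 0.57 (adjusted p = 6.9e-04), so the scale depends on the choice of markers.

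**Figure D4:**
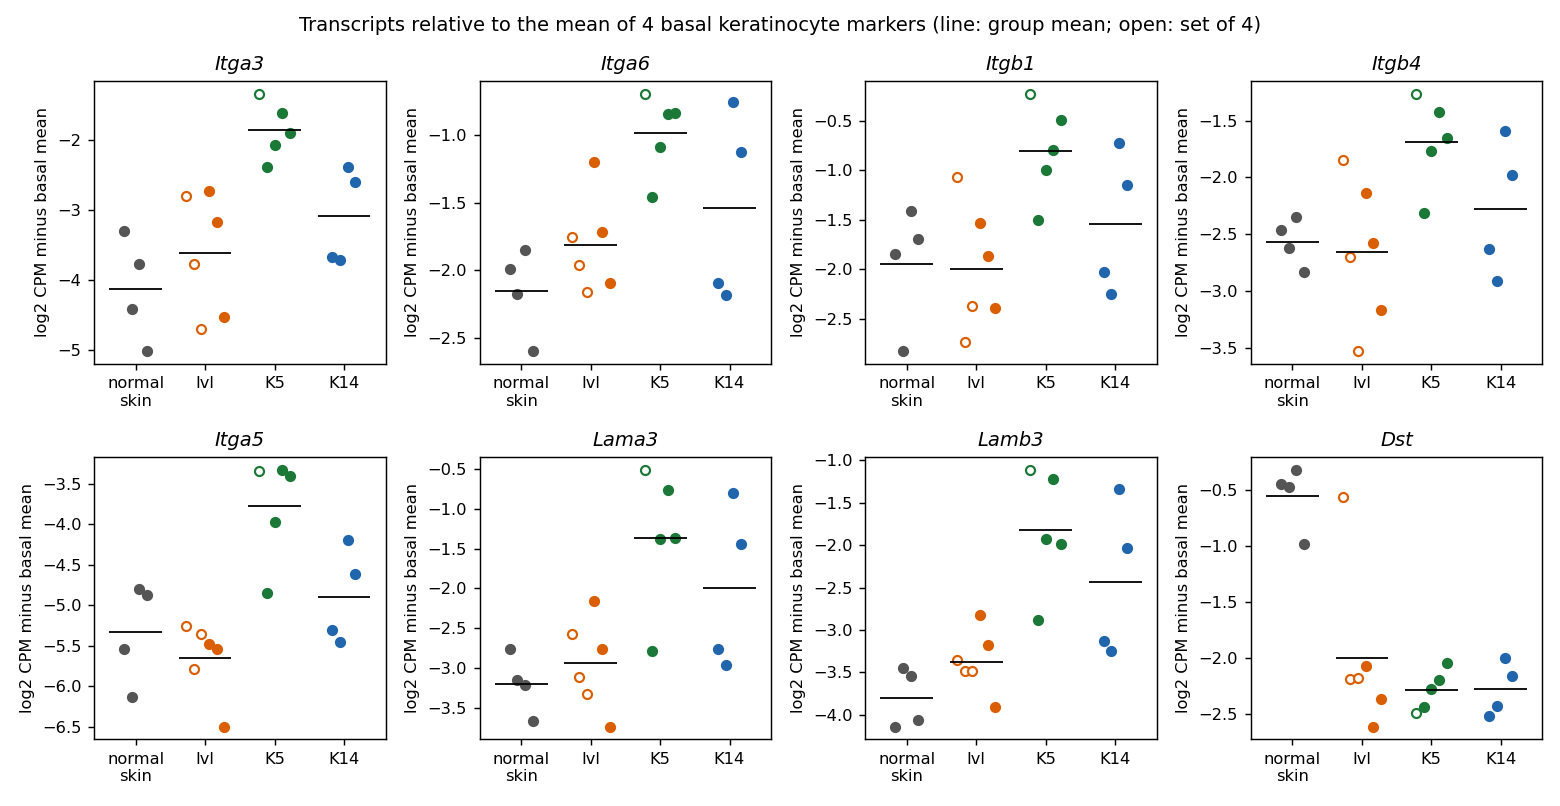
Log2 CPM of 8 members minus the mean log2 CPM of 4 basal keratinocyte markers in the same library (y axis), by group. Points are libraries, lines group means and open points the set of 4. Dst in K5/K14 tumours lies below all skin samples, Lamb3 above them, and the other members overlap skin.

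Across the 15 tumours the laminin chains ran together. Pearson's r of log2 CPM was 0.974 between Lama3 and Lamb3, and 0.983 over the 11 tumours outside the set of 4. Among the integrins, r was 0.934 for Itga3 and Itgb4, 0.807 for the hemidesmosome pair Itga6 and Itgb4 (0.922 over 11 tumours), 0.87 for Itga3 and Itgb1, and 0.911 for Itgb4 and Lama3. Itgb6 was the loosest of the 8 genes that ran with each other (0.549 to 0.677). Dst had negative r with all 8 (-0.625 to -0.365), and over the 11 tumours values from -0.426 to 0.0067. These tumours share promoter groups, library preparation and the batch adjustment, and 15 points carry 2 groups of unequal level, so r is given as a description.

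**Figure D5:**
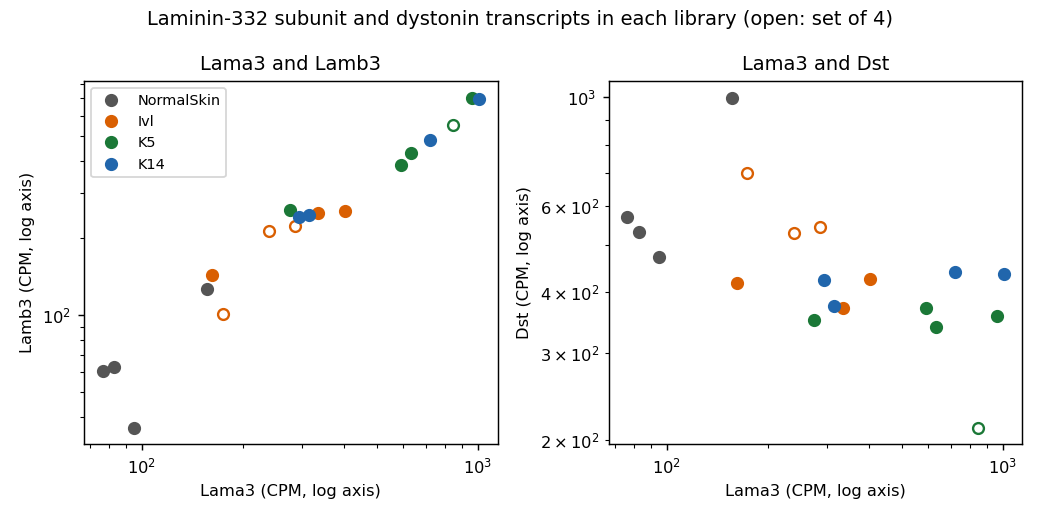
Lama3 CPM (x axis) against Lamb3 and Dst CPM (y axes), log axes, 1 point per library and coloured by group, with the set of 4 open. Lamb3 lines up with Lama3 over the 19 libraries, and K5 tumour 4 and K14 tumour 3 sit at the upper end, while Dst shows no such line and K5 tumour 1 is lowest at 212 CPM.

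Among 12840 protein-coding genes with a mean over 2 CPM, those named here were among the 2 most like a member over the 15 tumours, members left out. Lama3 ran with Car9, a carbonic anhydrase (r = 0.942), and Lamb3 with Tnfrsf23 (0.95). Itga6 ran most closely with the matrix metalloproteinases Mmp10 (0.96) and Mmp13 (0.937), and Itga5 with Basp1 (0.963) and the cytokine Il11 (0.962). Itga3 ran with Arhgef1, an activator of RhoA (0.979), Itgb1 with Tinagl1 (0.964) and Mxi1 (0.951), Itgb4 with Morc4 (0.947) and the kinase Src (0.942), and Itgb6 with Dock5 (0.871) and Nes (0.865). Dst ran with Zbtb44 (0.973) and Tbl1xr1 (0.971), but over the 11 tumours outside the set of 4 these fell to 0.791 and 0.747, while the pairs of the other members stayed between 0.871 and 0.979.

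Related genes are given as counts, to be read beside the shares of all genes called over 19 libraries: 23.2% higher and 38.9% lower in K5/K14 and 20.4% higher and 15.5% lower in Ivl tumours. Of 21 other integrin subunits, 2 were higher in K5/K14 tumours than in skin and 6 lower. The higher ones were Itga2, the collagen receptor chain (1.46 ± 0.42, adjusted p = 0.0067), and Itgb5 (0.94 ± 0.19, adjusted p = 4.1e-04), and the lower ones Itga4, Itga8, Itga9, Itga10, Itgae and Itgb7, all with overlapping values. The 15 libraries gave 2 and 6 as well, with Itgb7 no longer called and Itgad called. In Ivl tumours 0 were higher and 4 lower, or 0 and 6 over the 15 libraries.

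Of 8 other laminin chains 0 were higher and 3 lower in K5/K14 tumours, and 0 and 4 in Ivl tumours. The 15 libraries gave 5 lower in K5/K14 and 7 lower in Ivl tumours, beside 42.3% and 32.7% of all genes. The median log2 difference of these chains in K5/K14 tumours was -0.557, beside -0.603 for all genes. Lamc3 was lower in K5/K14 tumours with no overlap (-1.81 ± 0.48, adjusted p = 0.0036, and -1.83 ± 0.35 over the 15 libraries).

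Of 11 ligands and basement membrane genes 2 were higher and 2 lower in K5/K14 tumours, and 2 and 5 in Ivl tumours. The 15 libraries gave 2 higher and 5 lower in K5/K14, and 2 higher and 8 lower in Ivl tumours. Spp1 and Tnc were the higher genes in each case. Tnc, the wound matrix protein tenascin-C, rose by 3.55 ± 0.57 in K5/K14 tumours with no overlap (adjusted p = 5.8e-05, and 3.59 ± 0.48 over the 15 libraries). Vtn and Npnt were the lower genes over 19 libraries, with nephronectin (Npnt) at -1.50 ± 0.37 and no overlap (adjusted p = 0.0022, and -1.53 ± 0.19 over the 15 libraries).

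Of 17 genes of integrin activation and focal adhesions, 6 were higher (Fermt1, Ilk, Lims1, Parva, Flna and Tns4) and 4 lower (Tln2, Fermt3, Tns1 and Tns2) in K5/K14 tumours, and 4 higher and 5 lower in Ivl tumours. The 15 libraries gave 5 and 5 in K5/K14 tumours, where Parva and Fermt3 were no longer called, and 4 and 6 in Ivl tumours. Tns4, a tensin of epithelial cells, rose with no overlap in both groups (1.64 ± 0.21 and 1.14 ± 0.21, adjusted p = 4.5e-06 and 3.5e-04). Tns2 fell in both (-1.55 ± 0.38 and -1.35 ± 0.42, adjusted p = 0.0022 and 0.019), with no overlap in K5/K14 tumours. Both kept these calls over the 15 libraries.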

How the data were processed

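Bulk RNA-seq of 15 mouse tumours and 4 normal skin samples was analysed. Per the labels and the study's methods, the authors trimmed reads with TrimGalore, aligned them with HISAT2 2.1.0 to GRCm38, counted genes with featureCounts (Subread 1.6.3) and adjusted the table for batch with ComBat-seq. The deposited values are estimated counts, already whole numbers. They were not scaled for depth. Total counts were 45715309 to 72609771 per library, above the read number in the labels for reasons not given, and the counting of pairs and strand is not stated. The design had assumed plain counts, and the same test was used. Every column was mapped to a sample.

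A gene was kept where any 1 library held 5 or more counts (32031 genes). Libraries were scaled by TMM and genes tested with edgeR 4.0.16 in R 4.3.3 (quasi-likelihood F test, robust, two-sided, no covariate). Benjamini-Hochberg adjustment ran over all genes tested, and an adjusted p under 0.05 counted as called. Ivl, K5/K14 and skin were fitted in 1 model, and K5 and K14 in a model of 4 groups. CPM used TMM factors. Ratios used log2 CPM with a prior count of 2 and two-sided exact permutation tests. Fits were tested on simulated data. The alternatives were RLE scaling, totals only, filterByExpr, no filter, DESeq2 1.42.0, K5 or K14 alone, the 15 libraries, the set of 4 as covariate, a replicate block, each library left out, and a prior count of 0.5 for ratios. The study describes 1 tumour per mouse in the K5 and K14 models and several lesions per mouse in the Ivl model. Whether same-group samples came from separate animals is not stated, so p-values measure the spread between these samples. GENCODE M21 matched 34694 of 34807 identifiers.

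The members, gene lists and tests were chosen with earlier results of these data known. Named genes were all members, 4 partners (Plec, Col17a1, Cd151, Col7a1), in other lists the largest called change without overlap in each direction in K5/K14 tumours, and the 2 genes most like each member. By that rule Ilk comes first among the focal adhesion genes that rose, and Tns4 was described beside it. Itga2 and Itgb5, and the genes listed without values, were named after their values were seen. Results for some genes and 1 ratio are not reported here.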

Additional observations from a re-analysis of the deposited data

Results flagged for a closer look

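Rules on single values and on group differences picked out 4 results. Dst in K5 tumour 1 was 212 CPM, apart from the other 4 K5 tumours at 339 to 371 CPM (Dixon's test, gap over range 0.801, n = 5). This was the only such value among 36 sets of a member and a group, where chance gives about 1 in 20 sets. The same library belongs to the set of 4 and has the lowest Dst/Plec ratio. Without it, the K5/K14 tumours lay between 339 and 439 CPM, and the Dst difference from skin within the 15 libraries was -0.73 ± 0.16.

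The effect against skin differed between Ivl and K5/K14 tumours, by the direct test of the 2 tumour groups, for Itga5 (-1.27 on the log2 scale), Lama3 (-1.24) and Lamb3 (-1.17). None of the 3 passed within the 15 libraries.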

How the results depend on the processing

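Against skin, 7 to 8 members were higher in K5/K14 tumours, 8 with K5 tumours alone or without normal skin sample 1, where Itgb6 passed, and 1 was lower in every alternative run. In Ivl tumours against skin, totals-only scaling gave 2 higher and 1 lower member in place of 6 and 0, and the 15 libraries 1 lower. Lower members in Ivl against K5/K14 tumours, 3 in the main analysis, numbered 2 against K5 tumours alone (Itga3, adjusted p = 0.0285, and Itga5, 0.0117, but not Lama3, 0.0654, or Lamb3, 0.072), 0 against K14 tumours alone, 1 with totals only, 5 with DESeq2, 0 within the 15 libraries and 1 with the set of 4 as covariate, and 0 to 5 when each library was left out. With a replicate block the count was 0. Titles share replicate numbers between groups. Same-numbered libraries showed no common deviation by median (25 pairs, r -0.395 to 0.47, median -0.0556, against -0.00445 for 109 other pairs). This gives no sign that the numbers pair the samples, but was not tested and cannot exclude it for some of them. In Ivl tumours against skin the block called Itga5 too (0.85, adjusted p = 0.046). The number of ratios that passed ran from 0 to 1 (Ivl against skin), 1 to 4 (K5/K14 against skin) and 0 to 4 (Ivl against K5/K14) over the leave-outs. These counts cover all 8 ratios, including 1 not reported here, so the described ratios alone can number fewer. Cd151 against skin in K5/K14 tumours turned to -0.28 with totals only. For single genes, 465 values kept direction and call, 28 lost and 10 gained a call and 1 turned over the alternatives with all or a fixed part of the libraries, against 1008, 38, 18 and 0 over the leave-outs. The cause of these changes was not tested.

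Limits: the values carry a batch adjustment whose groups are not labelled, each sample is a bulk mixture, and gene counts merge isoforms. Within the 15 libraries only 3 Ivl tumours remain.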
